A study of Oryctolagus cuniculus with 3 samples.

Results

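The zinc finger genes described here are the genes measured on the array whose symbol begins with ZNF or ZFP and a digit, or with ZBTB, ZSCAN or ZKSCAN. There were 116 of them among the 6516 named genes of the value table, and they were carried by 217 of its 22839 probes. By symbol 90 belonged to the ZNF class, 15 to ZBTB, 7 to ZSCAN and ZKSCAN together and 4 to ZFP. Each gene is represented by its brightest probe, chosen by signal and not by how it differed between embryos. The embryos were rabbit late blastocysts of day 6. They came from morulae recovered on day 3 after artificial insemination, which were slow-frozen in one group and vitrified in the other, stored, and transferred to recipient does 3 days before collection. Vitrified morulae had been passed at 20 °C through dimethyl sulphoxide and ethylene glycol, 2 min in 12.5% of each and 30 s in 20% of each, before they were plunged into liquid nitrogen. How the slow-frozen morulae were cooled was not given in the sources used here. Each of 3 Agilent arrays with 2 channels compared 1 RNA sample of frozen embryos directly with 1 of vitrified embryos, with the dyes exchanged on replicate 2. Both groups had been cryopreserved and transferred, and fresh embryos were not analysed here. The labels call the arrays biological replicates but do not say how many embryos gave each RNA, so the p-values measure the spread between these 3 arrays. Each value is a log2 ratio, frozen divided by vitrified, so that a value below 0 means a lower signal in frozen embryos.

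Most of these genes encode proteins with C2H2 zinc fingers, short loops in which a pair of cysteines and a pair of histidines hold a zinc ion and which usually read DNA. Many ZNF proteins also carry a KRAB domain, which recruits the corepressor TRIM28 and the histone methyltransferase SETDB1 to silence repeats and some imprinted regions in the early embryo. ZBTB proteins have a BTB domain, through which they pair with each other and bind corepressors, and ZSCAN and ZKSCAN proteins have a SCAN domain for pairing. The label holds for most members, not for all. ZFP36 is an RNA-binding protein with another type of finger, ZBTB8OS is a factor of the tRNA ligase complex named for lying opposite a ZBTB gene, and ZNF622 acts in ribosome assembly.

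Some of the array's 60-base probes lay in the repeated finger part of the transcript itself, where related genes resemble each other, and the probes below show that part. Capitals mark codons that were matched to the start of a finger (cysteine, glycine, lysine, any residue, phenylalanine) or to the linker between fingers (threonine, glycine, glutamate, lysine, proline), and each probe is written 5′ to 3′ as in the array files. The 7 genes shown are examples from those described below whose brightest probe held such codons. 
ZKSCAN5: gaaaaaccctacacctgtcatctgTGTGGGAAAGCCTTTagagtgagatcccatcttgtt
ZNF568: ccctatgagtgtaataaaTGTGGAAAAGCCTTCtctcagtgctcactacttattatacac
ZNF250: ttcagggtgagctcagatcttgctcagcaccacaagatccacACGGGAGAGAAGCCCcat
ZNF181: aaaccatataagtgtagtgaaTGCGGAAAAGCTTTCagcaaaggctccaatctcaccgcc
ZNF219: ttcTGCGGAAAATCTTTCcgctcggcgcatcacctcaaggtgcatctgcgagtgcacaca
ZBTB3: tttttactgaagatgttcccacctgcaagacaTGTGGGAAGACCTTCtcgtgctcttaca
ZNF382: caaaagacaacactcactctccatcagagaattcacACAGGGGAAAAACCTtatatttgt
The array files place the probe of ZNF568 at chr5:1209906-1209965 and that of ZNF219 at chr17:41401573-41401632, both on the minus strand, and list the other 5 as unmapped. No source used here names the genome build of these coordinates, and no exon annotation was used. A codon match describes the letters of the probe alone.

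The finger-start codons, searched on both strands, were found in 12.9% of the brightest probes of the zinc finger genes against 0.245% of all probes in the table, and the linker codons in 6.90% against 0.127%. One or the other pattern, never both, was present in the probes of 23 of the 116 genes, against 0.384% of all named genes. A stretch of 20 or more bases was shared with a probe of another named gene in 3 genes. The longest ran over 21 bases and joined ZKSCAN5 and ZNF263. In 66 genes no stretch of 14 bases was shared. Whether one transcript also bound a related gene's probe was not tested, so the values of genes with finger-coding probes are uncertain in this respect.

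Replicate 1 stood apart from the other arrays. Across all probes of the table, which are not independent, it correlated with replicate 2 at Pearson r = -0.36 and with replicate 3 at -0.01, while replicates 2 and 3 correlated at 0.48. The direction of the column of replicate 2 is likely and not stated: its 10 spike-in probes, whose ratio follows the dyes, correlated at -0.996 with those of replicate 1 and -0.998 with those of replicate 3, as a column turned to frozen over vitrified would. Values with the sign of replicate 2 turned are given as well. Of the epiblast and trophoblast markers POU5F1, GATA3, TFAP2C, KRT8 and HAND1 were measured, which does not check the label, since every probe of the table was well above background on replicates 1 and 3. For NANOG, SOX2, CDX2, GATA6, SOX17 and KRT18 the table used here has no named probe. Of the blood list 3 of 8 genes were measured. The globins HBA, with 1.88, -2.23 and -1.79, and HBB2, with 2.62, -3.77 and -3.59, were high on replicate 1 and low on replicates 2 and 3, while the neutrophil gene S100A9 had 0.54, -0.15 and 0.25. Of the hypoblast list, which marks the layer under the inner cell mass, 6 of 8 genes were measured, with medians of 0.12, -1.10 and -1.56 on replicates 1, 2 and 3. The list was split on replicate 1. APOB, CER1 and GATA4 had -0.27, -0.59 and -0.50 there, while APOA1, RBP4 and DKK1 had 0.51, 0.66 and 0.59. All 6 were below 0 on replicates 2 and 3. Of the recipient's uterine markers SCGB1A1 and HOXA11 were measured, at -0.39 and -0.44. In bulk RNA, fewer cells of a type and less RNA per cell cannot be told apart, and the part of these cells in the ratios below was not tested.

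No zinc finger gene was shown to differ between frozen and vitrified embryos, and the measured means were small. The mean log2 ratios over the 3 arrays ran from -0.50 to 0.35, and 0 of the 116 reached a mean change of 1.5-fold, against 2.23% of all named genes. The median was -0.053, beside -0.013 for all named genes and 0.0035 for all probes. Below 0 were 76 of 116 genes, against 53.3% of all named genes. In limma's moderated test against 0 with Benjamini-Hochberg adjustment over all 22839 probes, 0 zinc finger genes and 0 probes in all passed the threshold of 0.05 (0%). The lowest adjusted p among zinc finger genes was 0.9999. Without adjustment 3 of the 116 had p under 0.05, against 4.19% of all named genes. They were ZNF250, lower in frozen embryos (2.76% of all named genes were lower at this p), and ZKSCAN5 and ZBTB11, higher (1.43%). That count was 12 without replicate 1 (16% of all named genes), 5 without replicate 2 (4.65%), 0 without replicate 3 (1.07%) and 7 with the sign of replicate 2 turned (5.03%). It was 0 with the dye as a covariate (2.79%), 1 with median-centred arrays (4.21%), 1 after normexp and loess on the scanner files of replicates 1 and 3 (3.1%) and 2 on the median over a gene's probes (4.54%). With 1 sign on all arrays and a mean of at least 1.5-fold there were 0 zinc finger genes (1.53%), 1 without replicate 1 (4.7%) and 6 without replicate 2 (4.53%). The 6 were ZNF250, ZNF496, ZNF219, ZNF592, ZNF3 and ZNF74, all lower in frozen embryos. The 95% interval of the mean, from the fit of all 3 arrays, had a median half-width of 0.40 and lay within 1.5-fold of no change in 68 of the 116 genes, while for the other 48 a change of that size was not excluded. These intervals take the sign of replicate 2 as it is read, and the share over all named genes is not given here.

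**Figure D1:**
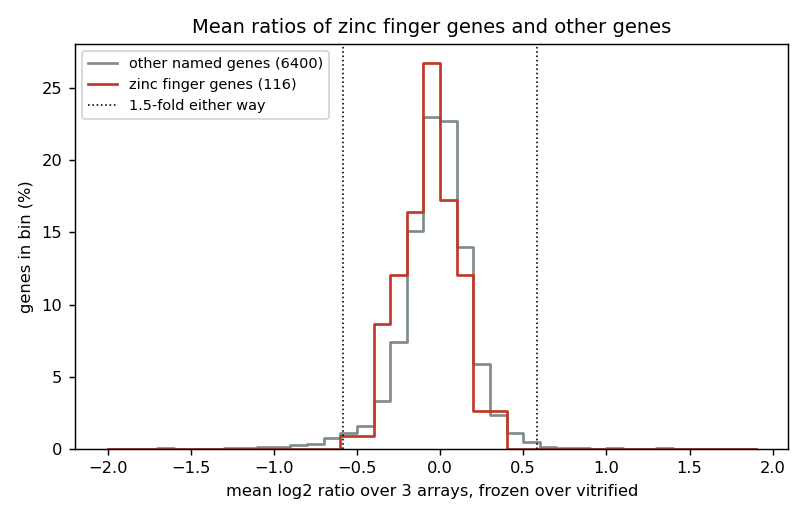
Mean log2 ratio of frozen over vitrified embryos over 3 arrays (x axis) and percent of genes in each bin of 0.1 (y axis) for the 116 zinc finger genes (red) and the 6400 other named genes (grey). The zinc finger genes lie between -0.50 and 0.35, inside the dotted lines at 1.5-fold, and their median is -0.053.

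Of the 116 genes, 28 had 1 sign on all 3 arrays (22.4% of all named genes did): 18 were below 0 throughout (11.6%) and 10 above (10.7%). With the sign of replicate 2 turned, 33 of the 116 would have 1 sign (26.3% of all named genes). The genes described next are those of 1 sign as the arrays are read. ZNF250 had the lowest mean. Its processed signal was 83.4 in frozen against 153 in vitrified embryos on replicate 1 and 128 against 184 on replicate 3. The log2 ratios were -0.88, -0.10 and -0.52 on replicates 1, 2 and 3, so frozen embryos had the lower value on each array, least so on the dye swap. The mean was -0.50 ± 0.39 (SD, n = 3; limma, adjusted p = 0.9999), and -0.43 with the sign of replicate 2 turned. ZNF181 had a like pattern, with -0.62, -0.04 and -0.53 and a mean of -0.40 ± 0.31. Its other probe had -0.50, 0.25 and -0.26, with a mean of -0.17, and so was not of 1 sign. ZBTB22, encoded in the major histocompatibility region, had -0.46, -0.05 and -0.52. Its frozen signal was 72.7 against 100 in vitrified embryos on replicate 1 and 57.9 against 83.1 on replicate 3. ZNF454 had -0.58, -0.03 and -0.39, with a mean of -0.34 ± 0.28. On the brightest probes of these 4 genes replicates 1 and 3 lay well below 0 and the dye-swapped replicate 2 just below it.

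ZNF281, a repressor known from the control of pluripotency genes in embryonic stem cells, took another course. Its signal was 1096 in frozen against 1233 in vitrified embryos on replicate 1 and 781 against 1246 on replicate 3, and the log2 ratios were -0.17, -0.15 and -0.67. The mean was -0.33 ± 0.30 (SD, n = 3), and both of its probes gave -0.33. POU5F1, the pluripotency factor OCT4, was lowest on replicate 3 too, with -0.75, -0.52 and -1.62. It was set beside ZNF281 after the values were seen, and a link between these genes was not tested. ZNF783 had a mean of -0.27 ± 0.22, ZNF232 had -0.26 ± 0.14, ZNF461 had -0.24 ± 0.15 and ZNF565 had -0.24 ± 0.12. The other probes of ZNF461 had means of -0.22 and -0.02. The log2 ratios of ZBTB3 were -0.39, -0.06 and -0.22. Each of these zinc finger genes kept a mean below 0 with the sign of replicate 2 turned, between -0.23 for ZNF281 and -0.09 for ZNF783. ZNF445, a KRAB zinc finger that protects imprinted regions from losing their methylation, was even across the arrays, with -0.20, -0.13 and -0.15 and a mean of -0.16 ± 0.04. Its other probe gave 0.10.

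At the other end, ZBTB11 had the highest mean. Its signal was 641 in frozen against 444 in vitrified embryos on replicate 1 and 404 against 346 on replicate 3. The log2 ratios were 0.53, 0.31 and 0.22, all above 0, with a mean of 0.35 ± 0.16 (SD, n = 3; limma, adjusted p = 0.9999), and its 2 probes gave 0.31 and 0.35. ZKSCAN5 had signals of 152 against 113 on replicate 1 and 121 against 96.6 on replicate 3. Its log2 ratios were 0.43, 0.25 and 0.32, with a mean of 0.33 ± 0.09 (limma, adjusted p = 0.9999). Its 1 probe is among those with finger codons shown above. With the sign of replicate 2 turned the means of ZBTB11 and ZKSCAN5 were 0.15 and 0.17.

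ZNF638 and ZNF326, both nuclear proteins that take part in RNA processing, came next among the genes of 1 sign. ZNF638 had a signal of 2319 in frozen against 2097 in vitrified embryos on replicate 1 and 2099 against 1731 on replicate 3, with log2 ratios of 0.14, 0.29 and 0.28. Its 5 overlapping probes lay between 0.18 and 0.24, so all of them had a mean above 0. ZNF326 had 0.48, 0.11 and 0.13, and its 5 overlapping probes lay between 0.24 and 0.39. ZNF148, which binds GC-rich promoters, had 0.07, 0.24 and 0.28 and ZNF568, a KRAB factor known in the mouse as a repressor of a placental Igf2 transcript, had 0.01, 0.29 and 0.17. The other probes of ZNF568 had means of -0.14 and -0.07, so its direction turned with the probe. The means of ZNF148 and ZNF568 lay near 0 with the sign of replicate 2 turned, at 0.04 and -0.04. The remaining genes above 0 throughout were ZNF131 (mean 0.15), ZNF146 (0.13), ZSCAN20 (0.12) and ZNF75A (0.11). The replicates of ZNF146 and ZNF75A were close to 0 on 2 of the arrays.

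**Figure D2:**
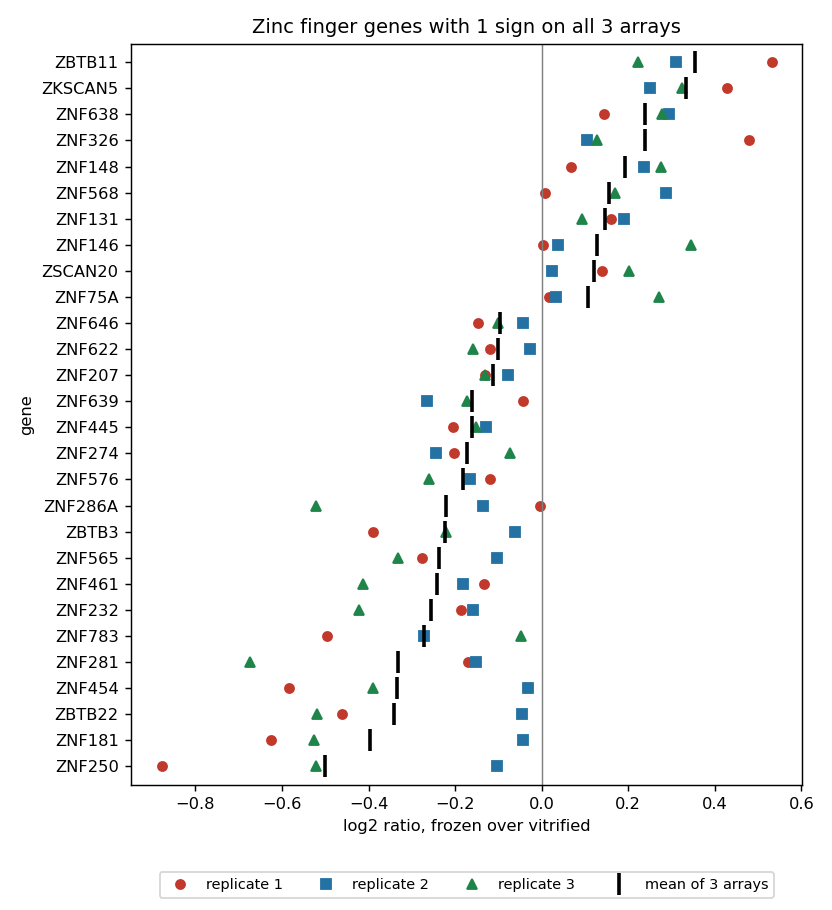
Log2 ratios of frozen over vitrified embryos (x axis) on replicates 1 (circles), 2 (squares) and 3 (triangles) for the 28 zinc finger genes (y axis) with 1 sign on all 3 arrays; black bars are the means. The 10 genes above 0 reach a mean of 0.35 (ZBTB11) and the 18 below 0 a mean of -0.50 (ZNF250).

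The ZBTB class had no shared direction. Of its 15 genes 6 had a mean above 0 and 9 below, with a median of -0.013, and 0 passed the adjusted test. ZBTB11 was above 0 and ZBTB22 and ZBTB3 below 0 on all 3 arrays. ZBTB44 had 0.76, -0.31 and 0.10, so that its mean of 0.18 rested on replicate 1, and its 3 probes ran from -0.09 to 0.18. ZBTB33, the methyl-CpG reader Kaiso, had -0.89, 0.29 and 0.24. ZBTB4, its relative with the same kind of binding, had the opposite order, with 0.32, -0.18 and -0.18. ZBTB48, a telomere-binding protein, had -0.70, 0.19 and 0.11 and ZBTB6 had -0.68, 0.37 and -0.29. In ZBTB33, ZBTB48 and ZBTB6 replicate 1 was the lowest array and replicate 2 the highest. ZBTB14 had a mean of -0.01 ± 0.32, ZBTB45 had -0.08 ± 0.14, ZBTB37 had 0.03 ± 0.18 and ZBTB18, a repressor in neural development, had 0.10 ± 0.17 (SD, n = 3). ZBTB10 had a mean of -0.03 ± 0.13 and 3 probes between -0.03 and -0.01. ZBTB21 had 0.00 ± 0.12 and 5 overlapping probes between -0.07 and 0.00. ZBTB8OS had 0.03 ± 0.19.

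Of the 7 SCAN-domain genes 4 had a mean above 0 and 3 below, and 0 passed the adjusted test. ZKSCAN5 and ZSCAN20 were above 0 on all 3 arrays and 0 of the 7 were below 0 throughout. ZKSCAN8 had -1.28 on replicate 1 and 0.15 and 0.11 on the others. ZSCAN18 had -0.85, 0.26 and 0.43 and ZSCAN25 had -0.55, 0.67 and -0.07. In each of these 3 genes replicate 1 was the lowest array. ZKSCAN1 ran the other way with 0.27, -0.08 and -0.28, and ZSCAN29 had 0.02, 0.32 and -0.18. The median of the class was 0.015 as the arrays are read and -0.16 with the sign of replicate 2 turned.

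**Figure D3:**
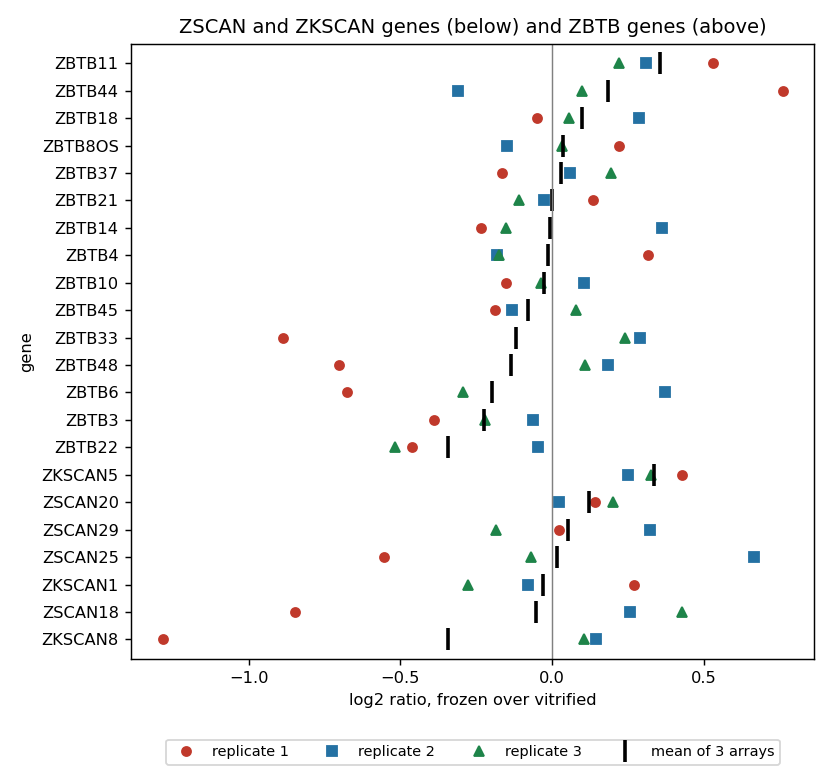
Log2 ratios of frozen over vitrified embryos (x axis) on replicates 1 (circles), 2 (squares) and 3 (triangles) for the 7 ZSCAN and ZKSCAN genes (lower rows) and the 15 ZBTB genes (upper rows); black bars are the means. The arrays of a gene often lie on both sides of 0, with replicate 1 as low as -1.28 in ZKSCAN8.

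Members known for roles in RNA, the spindle or chromatin ranged from steady to uneven. ZNF207, a spindle protein that loads the checkpoint factor BUB3, had the narrowest range of all 116 genes, with -0.13, -0.08 and -0.13 and a mean of -0.11 ± 0.03 (SD, n = 3). ZNF622 had -0.12, -0.03 and -0.16. Both lay slightly below 0 on every array. ZNF646 (-0.10 ± 0.05) and ZNF821 (-0.03 ± 0.07) were also among the 5 narrowest, together with ZNF445 and ZNF131. ZFP36, which speeds the decay of AU-rich messages, had 0.19, -0.22 and 0.03 and a mean of 0.00 ± 0.20. ZNF143, an activator of small nuclear RNA and cell cycle genes, had -0.33, 0.14 and -0.20. ZNF217, a partner of the CoREST corepressor, had 0.30, -0.20 and -0.21, and its 5 overlapping probes lay between -0.04 and 0.01. ZNF462, a chromatin factor needed in development, had a signal of 213 in frozen against 212 in vitrified embryos on replicate 1 and 115 against 242 on replicate 3. Its log2 ratios were 0.01, -0.41 and -1.07, with 3 overlapping probes between -0.50 and -0.44. Without replicate 1 its mean was -0.74, the lowest of the 116, and ZNF621 had the highest at 0.57, while 0 zinc finger genes passed the adjusted test there (smallest adjusted p = 0.065 in limma) against 3.08% of all named genes.

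For most genes the arrays lay farther from each other than their mean lay from 0. The median range of a zinc finger gene over the 3 arrays was 0.52, beside 0.49 for all named genes. The 8 genes with the widest range, 1.29 to 1.71, were ZNF382, ZNF592, ZNF585B, ZNF219, ZKSCAN8, ZNF500, ZNF496 and ZNF3. In 8 of these 8 replicate 1 was below 0 and farthest from it, and replicate 2 was above 0. Choosing genes by range favours the array with the widest spread, which was replicate 1. Its SD over all probes was 0.467, against 0.342 on replicate 2 and 0.354 on replicate 3. These signs on replicates 1 and 2 were common. With replicate 3 above 0 they were found in 27.6% of zinc finger genes and 25.4% of other named genes. With replicate 3 below 0 the shares were 19.0% and 15.25%. ZNF382, a KRAB repressor, had a signal of 613 in frozen against 1479 in vitrified embryos on replicate 1, but 535 against 445 on replicate 3. Its log2 ratios were -1.27, 0.43 and 0.26. The other probe of ZNF382 had -0.33, 0.15 and 0.05, so the wide range belongs to the brightest probe. ZNF219, whose finger probe is shown above, had -1.15, 0.32 and -0.19. Since replicate 2 was the dye swap, turning its sign would give these genes a lower mean, -0.48 for ZNF382 and -0.55 for ZNF219.

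Across the 116 genes, which share arrays and are not independent, replicates 1 and 2 correlated at Pearson r = -0.50 and replicates 2 and 3 at 0.35, beside -0.38 and 0.48 for the 6400 other genes. Replicates 1 and 2 had the same sign in 34 of 116 genes, which is 29.3%, against 34.1% of the 6400 other genes. A change of at least 1.5-fold was found in 28 of the 116 on replicate 1 (18.1% of all named genes), in 2 on replicate 2 (6.68%) and in 3 on replicate 3 (7.87%). Such a change was found on 1 array or more in 33 of the 116 (25.7% of all named genes) and on 2 or more in 0 (5.97%). By array the medians of the zinc finger genes were -0.14, 0.047 and -0.042 on replicates 1, 2 and 3, beside -0.081, 0.043 and 0.019 for all named genes.

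**Figure D4:**
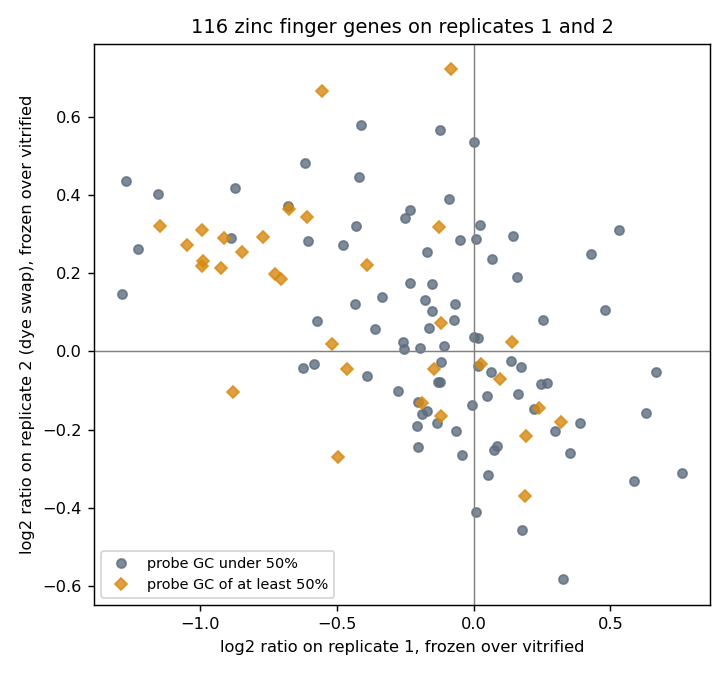
Log2 ratios of frozen over vitrified embryos on replicate 1 (x axis) and on the dye-swapped replicate 2 (y axis) for 116 zinc finger genes; diamonds mark probes with a GC content of at least 50%, circles the others. Most points fall in the upper left or lower right (Pearson r = -0.50), and the diamonds have a median of -0.51 on replicate 1.

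Base composition of the probe and its signal moved with the ratio on replicate 1, in splits chosen after the values were seen. The 32 zinc finger genes with a probe GC content of at least 50% (24% of all named genes) had a median of -0.51 on replicate 1, 0.19 on replicate 2 and -0.064 on replicate 3. For the 84 others the medians were -0.11, 0.029 and 0.010. The other named genes differed less by GC content, with medians of -0.15 and -0.062 on replicate 1. The 56 zinc finger genes with a mean log2 signal under 7 had a median of -0.26 on replicate 1 and 0.14 on replicate 2, against -0.082 and -0.026 for the 60 brighter ones. The other named genes split the same way, with -0.17 and 0.064 under 7 against -0.056 and 0.040 for the brighter ones. The 23 genes with finger or linker codons in the probe had medians of -0.39, 0.22 and 0.059 on replicates 1, 2 and 3, and the 93 without had -0.12, 0.024 and -0.048. Bright genes with low-GC probes, 48 of the 116, had a median of 0.0051 on replicate 1, -0.039 on replicate 2 and 0.017 on replicate 3, close to no difference on each. Such probes of the other named genes were near 0 too, with medians of -0.037, 0.038 and 0.021. Within high-GC probes the order by signal was reversed on replicate 1. The 12 bright zinc finger genes had a median of -0.71 there and the 20 with a signal under 7 had -0.425. Among the other named genes with high-GC probes these medians were -0.14 and -0.20. The part of base composition or dye in the ratios of single genes was not tested.

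Probes of one gene mostly gave similar means, but many of them overlap and are not separate readings. The 5 probes of ZNF217 began at bases 3089 to 3093, those of ZBTB21 at 2450 to 2454 and those of ZNF638 at 5695 to 5775. Of the 50 zinc finger genes with several probes, the means of the probes differed by a median of 0.084, and in 14 genes they lay on both sides of 0. The widest spread was in ZNF84, from -0.02 to 0.53 over 5 probes, followed by ZNF585B, from -0.28 to 0.08, and ZNF510, from -0.27 to 0.07. These 3 were picked out after their values were seen. In ZNF585B the low mean came from its brightest probe, at -1.23 on replicate 1, where its other probes had 0.07 and 0.03. The other 66 genes rest on 1 probe each.

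Zinc finger genes often lie in clusters, and some neighbours could be compared, a comparison also chosen after the values were seen. In the current RefSeq rabbit assembly mOryCun1.1, 19 of the members were on chromosome 18 and 12 on chromosome 19, and 10 pairs were direct neighbours. The members of a pair had means of the same sign in ZNF394 and ZKSCAN5 (0.10 and 0.33), ZKSCAN1 and ZNF3 (-0.03 and -0.26) and ZNF746 and ZNF777 (-0.25 and -0.18), and of opposite sign in the other 7. The array files, in an unnamed build, place the probe of ZNF746 on chromosome X and that of ZNF777 on chromosome 7, so this pair is uncertain. ZNF250 had -0.50 and its neighbour ZNF16 had 0.01, and ZNF286A had -0.22 beside 0.26 in ZNF287.

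The proteins through which zinc finger repressors act had no member past the threshold either. Of the KRAB and heterochromatin partners 14 of 17 were measured, 0 passed the adjusted test in either direction, and 5 lay above and 9 below 0, with a median of -0.082. TRIM28, the KRAB corepressor itself, had -0.28, 0.11 and 0.02. SETDB1, the methyltransferase it recruits, had -0.63, 0.26 and 0.02. The smallest unadjusted p belonged to PPHLN1, a part of the HUSH silencing complex, with a mean of -0.17 ± 0.17, and EHMT2, which methylates histone H3 in euchromatin, with -0.13 ± 0.03 (SD, n = 3). CHD4, a remodelling enzyme whose gene is the known target of ZNF410, had -0.69, 0.48 and -0.03, and ZNF410 had -0.09, 0.39 and 0.29.

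Of the BTB partners and corepressors 7 of 12 were measured, 0 passed, and 3 lay above and 4 below 0. HDAC3, the deacetylase of the NCoR complex, had -0.24, 0.23 and -0.54, RCOR1, the CoREST scaffold, had -0.55, 0.31 and -0.17, and CUL3, the ubiquitin ligase scaffold bound by many BTB proteins, had 0.05, -0.09 and 0.23. Other C2H2 factors outside the symbol rule were measured in 17 of 62 cases, with 11 above and 6 below 0 and a median of 0.047, and 0 passed. KLF11, a TGF-beta-induced repressor, had 0.13, 0.42 and 0.72 and a mean of 0.43 ± 0.30 (limma, adjusted p = 0.9999). KLF6 had -0.05, -0.40 and -0.47. The insulator protein CTCF had 0.11, 0.07 and 0.33, above 0 on all 3 arrays, and MAZ had a mean of 0.00 ± 0.04. TRIM28, SETDB1, CHD4, ZNF410, CUL3, CTCF and MAZ were chosen for their roles after their values were seen.

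The array held a further 49 genes of these symbols without a probe in the value table, and they have no ratio over the 3 arrays. All probes in the table exceeded background well in the red and green channels of replicates 1 and 3, whereas the best probe of 18 of these genes was so in no channel and that of 31 in 1 to 3 of the 4 channels. They include ZBTB16, a regulator of progenitor cells, in 1 channel, ZBTB20 in 3, ZNF521 in 2 and ZNF750, an epidermal factor, in none. The genes given a ratio are therefore those with a signal in frozen and in vitrified embryos on replicates 1 and 3, and a gene with signal in only one of them would have no ratio.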

How the data were processed

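The authors deposited a value table of log2 ratios for 3 arrays and, for replicates 1 and 3, scanner files, the only ones used here. Agilent Feature Extraction 10.10.1.1 quantified the scans, per the submitters' processing notes, and labelling started from 100 ng of RNA, per the labels. The scanner files as deposited hold spot intensities, raw and processed (background-subtracted, detrended, dye-normalized), and a log10 ratio. The table's scale, centring and direction are unstated; for replicates 1 and 3 its log2 values matched processed red over green, which is frozen over vitrified, to within 0.0151 and 0.00657. Column medians were -0.015, 0.021 and 0.017. It has 26 control rows, which were left out, and 0 other sample columns; how probes were filtered was not given in those sources.

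Probes were named by RefSeq transcript (8386 probes), gene identifier (5294), symbol (245), synonym (20) or the symbol as written (11); 8883 had no name. Ratios were tested against 0 with limma 3.58.1 in R 4.3.3 (lmFit, eBayes), adjusted over all probes, after a trial on simulated data. Joins used pandas 2.3.3 (Python 3.11.15). With 3 arrays the smallest p of an exact sign-flip test is 0.25. The number of arrays limits the precision, and slide and replicate coincide.

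Named genes are those past the threshold, the 10 largest means per direction among genes of 1 sign, the 8 widest and 5 narrowest ranges, the ZBTB, ZSCAN and ZKSCAN classes, a fixed list, and the 2 smallest p of each of 3 partner lists; others are said to be chosen after seeing values. Members and lists were chosen with earlier results of these data known. Alternatives are given in the closing section.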

Additional observations from a re-analysis of the deposited data

How the results depend on the processing

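With 11 settings tried, 0 zinc finger genes passed the adjusted test in each, and their median log2 ratio lay between -0.10 and 0.032. Leaving out each array in turn, 0 to 796 of the 22839 probes passed the threshold. Zinc finger genes with an unadjusted p under 0.05 numbered from 0 without replicate 3 (1.07% of all named genes) to 12 without replicate 1 (16%). Those of 1 sign and at least 1.5-fold numbered 0 to 6, with 6 without replicate 2 (4.53%). The median ran from -0.10 to 0.032. Both the 796 probes and the 12 genes were found without replicate 1. The unadjusted count was 7 with the sign of replicate 2 turned (5.03% of all named genes), 0 with a dye covariate (2.79%) and 1 with median-centred arrays (4.21%). It was 1 with normexp and loess on the scanner files (3.1%) and 5 with their processed signals (4.65%). With the processed signals 6 genes reached 1.5-fold with 1 sign, as many as without replicate 2 (4.53%). The scanner files hold replicates 1 and 3 only, so both scanner-file settings rest on the arrays of the fit without replicate 2. On the median over probes ZBTB11, with 2 probes, no longer had an unadjusted p under 0.05. ZNF250 and ZKSCAN5 have 1 probe each, so this setting could not change their means and is no check on them. Of the 53 named genes, which include those picked for 1 sign on all 3 arrays, 9 changed the sign of the mean with replicate 2 turned. Among all 116 zinc finger genes 32 did so (31.2% of all named genes). Without replicate 1 the sign changed in 18 of the 53, and the share over all named genes is not given here. The cause of these shifts was not tested. Fitting on genes whose protein has a finger pattern was not run, since no protein table was used. The test of each array's ratio against 0 is itself the paired analysis, and with 1 group no further replicate block could be added.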
